A study of Mus musculus with 8 samples.

Results

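The proteasome is built from the products of the Psm genes, and 44 genes of this family, the constitutive subunits together with their dedicated assembly factors, activators and inhibitor, were examined among the 22063 genes of the table. A gene was a member when its symbol was Psma, Psmb, Psmc, Psmd, Psme, Psmf or Psmg followed by a number and its estimated counts summed to at least 40 over the 8 libraries. Of 48 symbols with that form, 3 were set aside because they encode the inducible immunoproteasome subunits (Psmb8, Psmb9 and Psmb10), and 1, the thymus subunit Psmb11, was left out with a sum of 3 counts. The member nearest to the minimum was Psma8, an alpha subunit known from testis, with 84 counts. The rule used no contrast between the groups, and all 44 members also passed the low-count filter of the test.

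The study sequenced RNA from aortas of male C57BL/6J mice that were 3 weeks old at the start. All mice drank beta-aminopropionitrile (BAPN), an inhibitor of the collagen and elastin crosslinking enzyme lysyl oxidase that brings about aortic dissection, at 1 g per kg per day for 3 weeks. The 4 vehicle libraries came from mice given saline by gavage and the 4 colchicine libraries from mice given 200 µg per kg per day of colchicine, a drug that blocks microtubule assembly. Both groups therefore carry BAPN, and nothing here is set against an untreated aorta. The labels do not say that each library came from a separate animal, so p-values measure the spread between these libraries, which may in part be technical.

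The proteasome degrades proteins tagged with ubiquitin. Its 20S core is a stack of rings, with outer alpha rings that gate the entrance and inner beta rings whose subunits Psmb5, Psmb6 and Psmb7 carry the cutting sites. The 19S regulatory particle binds ubiquitin, removes it and unfolds the substrate with a ring of ATPases, and other caps (the PA28 activators and PA200) can take its place. Under inflammatory signals such as interferon gamma, cells replace the cutting subunits by Psmb8, Psmb9 and Psmb10. Many subunit genes are switched on together by the transcription factor NFE2L1, and by its relative NFE2L2, through antioxidant response elements in their promoters.

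The letters TGACNNNGC, a core of that element, were searched on both strands of the promoter windows that RefSeq gives for GRCm38.p6, which reach from upstream of a gene's start to shortly after it. Of the 36 members with a window, 6 held the letters (16.7%), namely Psmb5, Psmb6, Psmc6, Psmd9, Psmd12 and Psme4, against 13.99% of the 27025 genes with a window and 12.4% of all 32851 windows of that length. The share among the members was thus near that of all genes. The windows of 4 of them are shown because these genes return below. Psmb5 is the cutting subunit with the largest fall, and Psmb6 is another cutting subunit. Psme4 is the member that rose, and Psmc6 is the ATPase with a positive change. Capitals mark the match, which on the printed strand reads in reverse complement in Psmc6 and Psme4.
Psmb5 (chr14:54617946-54618245, minus strand): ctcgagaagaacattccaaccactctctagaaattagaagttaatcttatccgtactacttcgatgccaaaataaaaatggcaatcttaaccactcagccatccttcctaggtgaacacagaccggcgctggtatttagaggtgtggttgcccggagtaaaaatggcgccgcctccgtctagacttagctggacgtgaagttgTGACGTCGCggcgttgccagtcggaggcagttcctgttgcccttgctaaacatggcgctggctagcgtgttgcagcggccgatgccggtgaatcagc
Psmb6 (chr11:70525107-70525406, plus strand): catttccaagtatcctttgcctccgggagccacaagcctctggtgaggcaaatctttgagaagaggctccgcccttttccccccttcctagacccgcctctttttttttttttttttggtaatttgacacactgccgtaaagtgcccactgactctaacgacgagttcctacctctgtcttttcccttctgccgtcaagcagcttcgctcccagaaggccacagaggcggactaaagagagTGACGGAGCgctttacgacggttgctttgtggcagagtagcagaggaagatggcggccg
Psmc6 (chr14:45329574-45329873, plus strand): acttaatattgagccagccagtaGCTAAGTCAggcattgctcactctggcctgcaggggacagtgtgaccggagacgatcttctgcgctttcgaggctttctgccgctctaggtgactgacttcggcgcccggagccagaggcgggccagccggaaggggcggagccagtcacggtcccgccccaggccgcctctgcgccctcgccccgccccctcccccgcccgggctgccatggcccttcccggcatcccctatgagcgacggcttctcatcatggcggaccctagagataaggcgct
Psme4 (chr11:30771525-30771824, plus strand): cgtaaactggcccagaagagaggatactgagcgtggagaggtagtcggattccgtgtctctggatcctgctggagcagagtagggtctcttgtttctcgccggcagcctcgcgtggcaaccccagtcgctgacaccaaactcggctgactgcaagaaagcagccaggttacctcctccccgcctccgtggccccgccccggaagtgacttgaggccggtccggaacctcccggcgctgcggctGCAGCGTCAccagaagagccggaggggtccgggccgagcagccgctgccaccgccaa
A match is a description of the letters and shows no binding. The match began at -47, -9 and -7 relative to the start in Psmb5, Psmb6 and Psme4, and farther upstream, at -227, in Psmc6. Among these 4 genes, 1 fell, 1 rose and the other two did not pass the test described next.

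Library totals were 15.4 to 18.5 M estimated counts. The groups differed in far more than the proteasome, since 2342 of 13431 tested genes were higher (17.4%) and 2277 lower (17%) with colchicine. Vehicle 1 and vehicle 4 stood apart, with haemoglobin genes at 14.9% and 6.21% of counts against at most 0.318% in the other 6 libraries. The smooth muscle markers of an aorta were all detected, and their summed level was 6250 to 21500 CPM (counts scaled to a common library total) in vehicle against 23139 to 31638 with colchicine. All 5 endothelial markers were detected too, at 964 to 1479 and 1596 to 2363 CPM, with 2 of them higher and 2 lower with colchicine. All 5 erythroid and all 4 tested neutrophil markers were lower with colchicine, 3 of 7 macrophage markers were lower and 3 of 7 smooth muscle markers were higher. Summed levels in vehicle and colchicine libraries were 389 to 197457 and 881 to 3094 CPM for the erythroid, 15.2 to 2922 and 5.72 to 13.6 for the neutrophil, and 506 to 1701 and 339 to 630 for the macrophage list. All 4 platelet markers, both tested B cell markers, 1 of 5 T cell and 1 of 5 brown adipocyte markers were lower as well, fibroblast markers summed to 1153 to 3311 and 2333 to 2855 CPM and muscle markers to 11.1 to 119 and 9.07 to 53.1 CPM, and no marker was at 0 in every library. In bulk tissue, fewer cells of a type and less RNA per cell cannot be told apart. The part of these cell type differences in the results below was not tested. Values are given for fits without vehicle 1 and 4 or with a marker level as a covariate.

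With colchicine, 12 proteasome genes fell, 1 rose and 31 did not pass. The genes that fell were Psmb2, Psmb3, Psmb4 and Psmb5 of the beta ring, the core assembly chaperones Psmg1, Psmg3 and Psmg4, the PA28 activator genes Psme1, Psme2 and Psme3, the lid subunit Psmd3 and the base chaperone Psmd9. Their levels went to between 53.6% (Psmg3) and 67.8% (Psmd9) of vehicle. The gene that rose was Psme4, which encodes PA200, at 169% of the vehicle level. These calls came from edgeR's quasi-likelihood test, adjusted by Benjamini-Hochberg over all 13431 genes, with adjusted p-values of 0.00661 to 0.0453.

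The 12 lowered genes were 27.3% of the members, against 17% of all tested genes, and the 1 raised gene was 2.27%, against 17.4%. Over all 44 members, 40 changes were negative and 4 positive. The median change was -0.43 on the log2 scale, against -0.03 over all tested genes. All 4 colchicine libraries lay below all 4 vehicle libraries in 17 members (38.6%, against 17.9% of tested genes) and above them in 1 (2.27%, against 21.1%). In the other 26 members the groups overlapped.

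Vehicle 1 stood out among the libraries. It was the highest of the 4 vehicle libraries for 40 of 44 members and the highest of all 8 for 39. The member genes made up 0.529% of the counts of vehicle 1 (haemoglobin and mitochondrially encoded genes left out of the total) and 0.460% in vehicle 4. The other two vehicle libraries were at 0.342% and 0.335%, and the colchicine libraries at 0.311% to 0.329%. The spread of CPM was larger in vehicle than in colchicine for 43 of 44 members.

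**Figure D1:**
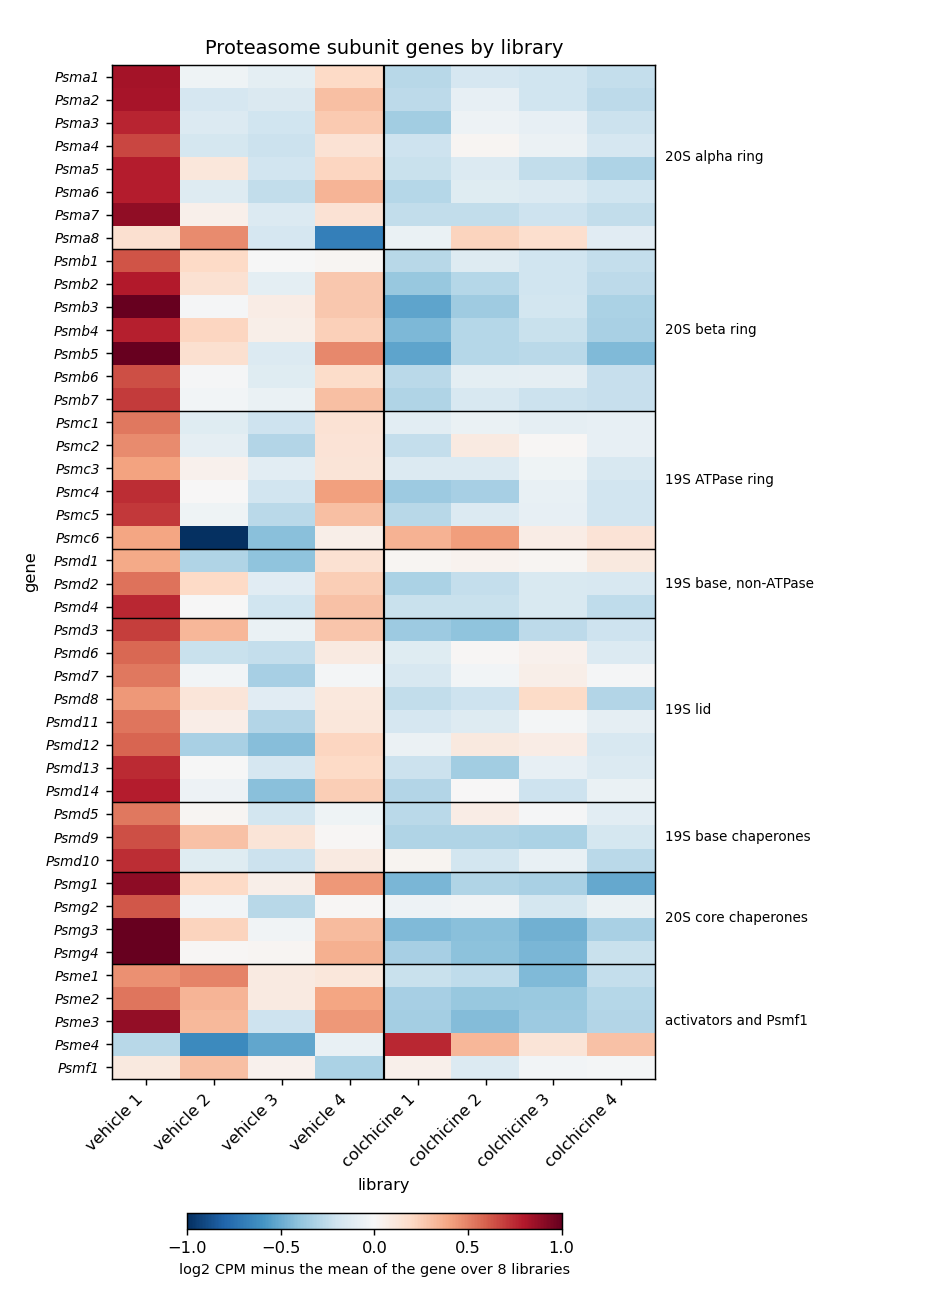
The heatmap shows, for each of the 44 genes (rows, ordered by their place in the proteasome) and each of the 8 libraries (columns), the log2 CPM minus the mean of that gene over the libraries; colours stop at 1 in either direction. Vehicle 1 is the highest library for 39 genes, the 4 colchicine libraries look alike in most rows, and Psme4 shows the opposite pattern to the genes around it.

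The counts of calls depended on the libraries used. Without vehicle 1 and 4 together, 9 of the same 12 genes were lowered (20.5% of members, against 20.3% of tested genes) and 4 were raised (9.09%, against 20.2%), and the median change of the members was -0.12. The 3 calls lost there were Psmb2, Psmg4 and Psme3, and the 3 raised genes gained were Psmc6, Psmd1 and Psmd12. Leaving out vehicle 1, 2, 3 or 4 alone gave 17, 13, 22 and 12 lowered members. In these fits 18.4%, 15.2%, 19.6% and 19.4% of all tested genes were lowered. Leaving out colchicine 1, 2, 3 or 4 gave 3, 3, 5 and 7, with 10.6%, 9.59%, 11.3% and 12.4% of all tested genes lowered. Psme4 was not raised without colchicine 1 (adjusted p = 0.0521). With the mean log2 CPM of the erythroid markers as a covariate, 7 members were lowered and 2 raised. Over all tested genes 13.5% were lowered and 13.8% raised in that fit. With the mean log2 CPM of the smooth muscle markers as a covariate, a fit chosen after seeing the data, 0 members passed by edgeR. There, 1 member had an unadjusted p under 0.05 and 2 genes passed in all. The summed smooth muscle levels did not overlap between the groups (6250 to 21500 CPM in vehicle, 23139 to 31638 with colchicine). That fit can therefore hardly tell smooth muscle level from treatment, and the part of either was not tested. Only Psme1, Psme2 and Psmg1 of the 13 called members passed in all 8 fits that left out 1 library.

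The alpha ring forms the gate and the docking face of the core. Of its 8 genes 0 passed by edgeR, DESeq2 or limma-voom, 3 had an unadjusted p under 0.05 by edgeR, and 7 of the 8 changes were negative, with a median of -0.44. The 7 genes other than Psma8 ranged from -0.53 (Psma7) to -0.25 (Psma4). Without vehicle 1 and 4 these 7 changes ran from -0.19 to 0.10. Psma8, the member with the lowest level per length (a mean of 0.874 TPM, counts per length as a share of the library), had 0.660, 0.823, 0.526 and 0.369 CPM in vehicle 1 to 4 and 0.566, 0.689, 0.666 and 0.548 in colchicine 1 to 4. Its 6 to 15 counts per library overlapped between the groups, and the change was 0.05 ± 0.35 (adjusted p = 0.917).

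All 4 calls in the core fell in the beta ring. In all 7 genes the change was negative, from -0.82 to -0.37 with a median of -0.59, and 4 of the 7 fell. The colchicine libraries lay below the vehicle libraries in 6 of the 7, the exception being Psmb6.

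Psmb5, the subunit with the chymotrypsin-like site (ENSMUSG00000022193, GRCm38 chromosome 14, 54614119 to 54618022, minus strand), measured 151, 83.3, 67.9 and 104 CPM in vehicle 1 to 4. The colchicine libraries had 51.7, 61.2, 61.7 and 54.9 CPM. Every colchicine library was below every vehicle library, and vehicle 1 was far above the other three. The means were 102 ± 36.0 and 57.4 ± 4.89 CPM (SD, n = 4), a change of -0.82 ± 0.23 (SE, adjusted p = 0.0263).

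Psmb6, the subunit with the caspase-like site (ENSMUSG00000018286, chromosome 11, 70525367 to 70527858), measured 156, 98.9, 91.8 and 113 CPM in vehicle 1 to 4 and 83.0, 93.4, 93.9 and 85.0 in colchicine 1 to 4. The groups overlapped, since vehicle 3 was below colchicine 2 and 3. The change was -0.37 ± 0.18 and did not pass (adjusted p = 0.129). Psmb7, the subunit with the trypsin-like site (ENSMUSG00000026750, chromosome 2, 38588036 to 38644087), measured 135, 81.4, 79.1 and 102 CPM in vehicle 1 to 4 and 67.2, 74.3, 71.6 and 70.7 in colchicine 1 to 4. Its groups did not overlap, but the change of -0.49 ± 0.18 did not pass (adjusted p = 0.064).

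Psmb3, a structural beta subunit without a cutting site (ENSMUSG00000069744, chromosome 11, 97703399 to 97713500), measured 206, 98.1, 104 and 119 CPM in vehicle 1 to 4 and 68.6, 77.4, 87.0 and 79.2 in colchicine 1 to 4. Vehicle 1 was again the highest by far, and the groups did not overlap. The change was -0.75 ± 0.24 (adjusted p = 0.0383). The other two lowered genes of the ring, the structural subunits Psmb4 and Psmb2, changed by -0.67 ± 0.17 (adjusted p = 0.0196) and -0.59 ± 0.19 (adjusted p = 0.0368).

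The calls of Psmb2, Psmb3 and Psmb5 were each lost when any 1 of the colchicine libraries was left out, with adjusted p-values of 0.0541 to 0.0930. Psmb4 did not pass without colchicine 1 or 2 (0.0556 and 0.0515). Within each library, the mean deviation of the beta ring genes from their own means exceeded that of the alpha ring genes by 0.01, 0.17, 0.14 and 0.02 (log2) in vehicle 1 to 4. In colchicine 1 to 4 it was lower, by -0.13, -0.11, -0.04 and -0.06. This offset is a description. The beta ring genes had a median transcript length of 898 bases and the alpha ring genes 1179.

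The core is put together by dedicated chaperones, of which Psmg1 pairs with Psmg2 and Psmg3 with Psmg4 to order the alpha subunits. Of these 4 genes, 3 fell, and their changes were among the largest of all members. Psmg3 (ENSMUSG00000029551, chromosome 5, 139823592 to 139826885) had 18.5, 9.66, 8.10 and 10.3 CPM in vehicle 1 to 4 and 6.12, 6.20, 5.94 and 6.63 in colchicine 1 to 4. The colchicine libraries were close to each other and all below the vehicle libraries. The change was -0.90 ± 0.26 (adjusted p = 0.0286).

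Psmg1 (ENSMUSG00000022913, chromosome 16, 95979933 to 95990960) had 25.6, 15.8, 14.3 and 18.6 CPM in vehicle 1 to 4 and 10.02, 11.1, 10.99 and 9.64 in colchicine 1 to 4. The gap between the groups was wide here, and the change of -0.83 ± 0.20 (adjusted p = 0.0147) passed whichever library was left out. Psmg4 (ENSMUSG00000071451, chromosome 13, 34162964 to 34178173) had 13.6, 6.69, 6.73 and 8.48 CPM in vehicle 1 to 4 and 5.27, 4.99, 4.83 and 5.70 in colchicine 1 to 4. The groups did not overlap, and the change was -0.77 ± 0.26 (adjusted p = 0.0453), the call nearest to the threshold. It was lost without vehicle 4 and without any 1 of the colchicine libraries (0.0556 to 0.103). The call of Psmg3 was lost without any 1 of the colchicine libraries too (0.0548 to 0.0690). Psmg2, the fourth gene, was at -0.20 ± 0.20 and did not pass (adjusted p = 0.452).

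In the regulatory particle the medians of most groups lay nearer to 0. In the ATPase ring, Psmc1 to Psmc6, 0 passed by edgeR, DESeq2 or limma-voom and 1 (Psmc4) had an unadjusted p under 0.05 by edgeR. The median was -0.22 and the range -0.52 (Psmc4) to 0.41 (Psmc6). Psmc6, singled out after its values were seen, measured 64.9, 24.6, 37.0 and 51.4 CPM in vehicle 1 to 4 and 62.9, 66.2, 52.1 and 54.5 in colchicine 1 to 4. Vehicle 2 and 3 were the low libraries and vehicle 1 lay among the colchicine values. With all libraries its change of 0.41 ± 0.27 did not pass (adjusted p = 0.255), and without vehicle 1 and 4 it was 0.94 ± 0.19 (adjusted p = 0.0121).

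The base also holds the scaffolds Psmd1 and Psmd2 and the ubiquitin receptor Psmd4, and 0 of these 3 passed by edgeR (0.05, -0.45 and -0.47), where 2 had an unadjusted p under 0.05. DESeq2 called 1 of the 3 lower and limma-voom 0. Of the base chaperones Psmd5, Psmd9 and Psmd10, which help to order the ATPases, Psmd9 fell by 0.56 ± 0.15 on the log2 scale (adjusted p = 0.0243). That call was lost without colchicine 1, 2 or 3 (0.0543 to 0.0625). In the lid, which holds the deubiquitinase Psmd14, 1 of 8 genes fell. This was the scaffold subunit Psmd3, at -0.64 ± 0.17 (adjusted p = 0.0197), and its call was lost without colchicine 1 or 2 (0.0531 and 0.0571). The other 7 lid genes lay between -0.43 and -0.08.

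Psmd8, a lid subunit, was the member with the highest level per length, a mean of 297 TPM. It measured 282, 228, 193 and 225 CPM in vehicle 1 to 4 and 177, 181, 238 and 170.3 in colchicine 1 to 4. Colchicine 3 was apart from the other three and within the vehicle range, and the change was -0.28 ± 0.17 (adjusted p = 0.230). Mean levels of the other lid genes began at 44.9 TPM. Beta ring genes had 140.0 to 254 TPM, core chaperones 18.8 to 26.6 TPM and base chaperones 16.6 to 29.3 TPM.

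Among the genes of the alternative caps 3 fell and 1 rose. Psme1 and Psme2 encode the alpha and beta subunits of PA28, an activator that interferon gamma induces. Psme1 (ENSMUSG00000022216, chromosome 14, 55578123 to 55581529) measured 97.4, 100.2, 75.5 and 76.8 CPM in vehicle 1 to 4 and 60.7, 59.6, 52.3 and 60.3 in colchicine 1 to 4. Here vehicle 2 and not vehicle 1 was the highest library, the groups did not overlap and the change was -0.59 ± 0.14 (adjusted p = 0.0141). Psme2 (ENSMUSG00000079197, chromosome 14, 55587441 to 55591113) measured 91.3, 80.1, 67.2 and 82.9 CPM in vehicle 1 to 4 and 50.2, 48.7, 48.8 and 51.9 in colchicine 1 to 4.

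All Psme2 values of colchicine were lower than those of vehicle, by -0.69 ± 0.12 (adjusted p = 0.00661, the smallest among the members). Both genes also fell without vehicle 1 and 4, by 0.59 and 0.56 (adjusted p = 0.0169 and 0.0108). Neither passed after removal of a trend over transcript length, which is described below. Psme2 shares sequence with the near copy Psme2b, which had 0.514 to 1.66 CPM, so its counts depend on how shared reads were assigned.

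Psme3 encodes PA28 gamma, a nuclear activator that forms caps of its own (ENSMUSG00000078652, chromosome 11, 101316213 to 101323537). It measured 126, 85.7, 59.4 and 92.6 CPM in vehicle 1 to 4 and 54.0, 50.6, 53.4 and 56.0 in colchicine 1 to 4. Vehicle 3 was near the colchicine libraries, though above each of them. The change was -0.76 ± 0.21 (adjusted p = 0.0227), lost without colchicine 1, 2 or 3 (0.0554 to 0.0617) and without vehicle 1 and 4 (-0.43, adjusted p = 0.0570).

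Psme4, whose product PA200 is a large single-chain cap (ENSMUSG00000040850, chromosome 11, 30771726 to 30880361), measured 47.8, 37.3, 40.6 and 55.2 CPM in vehicle. The colchicine libraries had 98.2, 73.2, 63.7 and 71.2 CPM, all above the vehicle libraries, with colchicine 1 the highest. The means were 45.2 ± 7.96 and 76.6 ± 15.01 CPM (SD, n = 4), a rise of 0.76 ± 0.18 on the log2 scale (adjusted p = 0.0142). Without vehicle 1 and 4 the rise was 0.98 ± 0.19 (adjusted p = 0.0103). Psmf1, which encodes the inhibitor PI31, was at -0.08 ± 0.15 (adjusted p = 0.692).

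The change of a gene with colchicine varied with the length of its transcript, across the whole table. Among the 444 tested genes under 800 bases the median change was -0.56 and 36.5% were lowered and 1.35% raised. Among the 1232 genes of 6000 bases or more it was 0.50, with 4.79% lowered and 43.3% raised. Lengths here are those behind the deposited TPM values. Proteasome genes had a median length of 1390 bases against 2776 over all tested genes, and 41 of 44 were shorter than that median.

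Across the 44 members, log2 length and log2 change correlated with Pearson's r of 0.63 and Spearman's rho of 0.55, and with an r of 0.50 when Psme4 was left out. Across all tested genes r was 0.29. Genes are not independent replicates, and all these changes come from the same 8 libraries. GC content correlated with the change at -0.60 over the members and -0.22 over all genes.

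**Figure D2:**
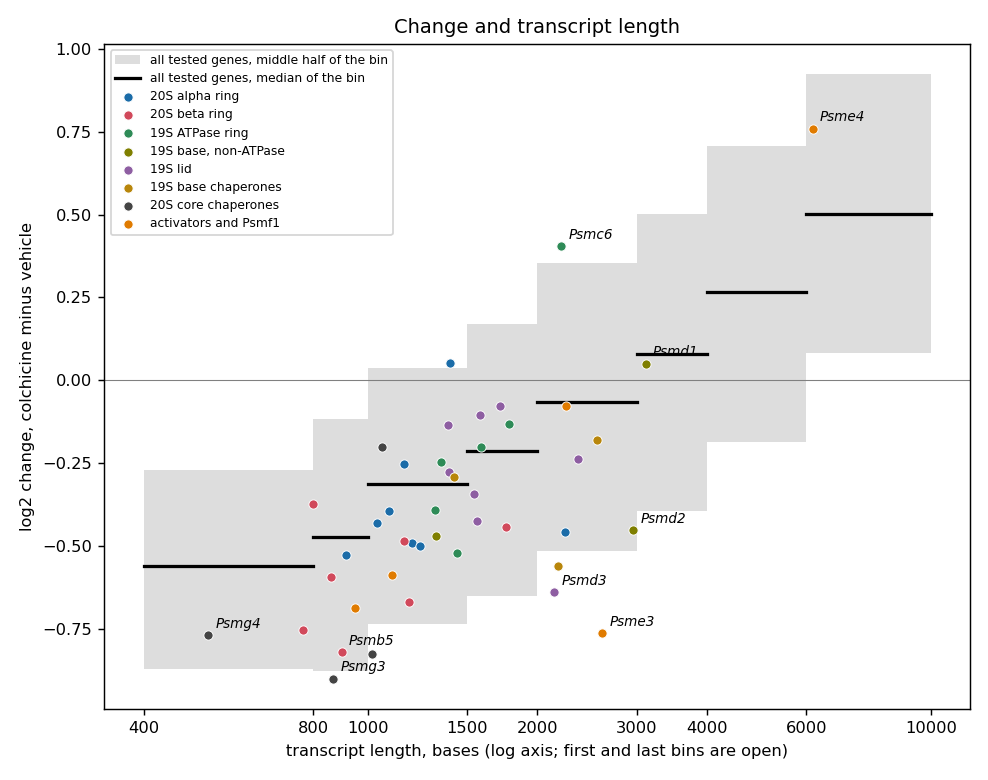
The log2 change of each of the 44 genes (vertical axis, colchicine minus vehicle in CPM) is plotted against its transcript length in bases (log axis), with the median and the interquartile range of all tested genes in 8 length bins. The 3 members under 800 bases lie between -0.77 and -0.37, Psme4 at 6163 bases lies at 0.76, and Psme3 at -0.76 lies below the interquartile range of its bin.

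Members are set here beside genes of like length. The 3 members under 800 bases had a median of -0.75 and the 5 from 800 to 1000 bases one of -0.69, against -0.56 and -0.47 for all genes of those bins. The 18 members of 1000 to 1500 bases were at -0.41 against -0.31, and the 7 of 1500 to 2000 bases at -0.20 against -0.21. The 9 members of 2000 to 3000 bases stood lower than their bin, at -0.45 against -0.07, and 3 of them fell (Psme3, Psmd3 and Psmd9). Psmd1, the 1 member of 3000 to 4000 bases, was at 0.05 against 0.08. Psme4, the 1 member above 6000 bases, was at 0.76 against 0.50, within the interquartile range of a bin in which 43.3% of genes were raised. Without vehicle 1 and 4 the medians were -0.36 against -0.31 under 800 bases and -0.39 against -0.30 from 800 to 1000. They were -0.12 against -0.20 from 1000 to 1500 bases, 0.09 against -0.13 from 1500 to 2000 and -0.20 against -0.05 from 2000 to 3000. In that fit Psmd1 was at 0.40 against 0.07 and Psme4 at 0.98 against 0.45.

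Libraries also differed in their content of short transcripts. Counts from transcripts under 1000 bases, without haemoglobin and mitochondrial genes, made up 14.8%, 8.79%, 8.43% and 10.5% of vehicle 1 to 4 and 6.27%, 7.11%, 6.66% and 6.87% of colchicine 1 to 4. Every vehicle library was above every colchicine library, and vehicle 1 and 4 were the highest. The mean of the members in vehicle 1 was 0.64 (log2) above their mean over the libraries, where a smooth trend of all genes over length put genes of the same lengths at 0.43. In vehicle 2, 3 and 4 the members were at 0.01, -0.16 and 0.17 and the trend at 0.10, 0.10 and 0.14. In colchicine 1 to 4 the members were at -0.21, -0.14, -0.14 and -0.18 and the trend at -0.21, -0.22, -0.19 and -0.15. The members thus stood above the trend in vehicle 1 and below it in vehicle 2 and 3.

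**Figure D3:**
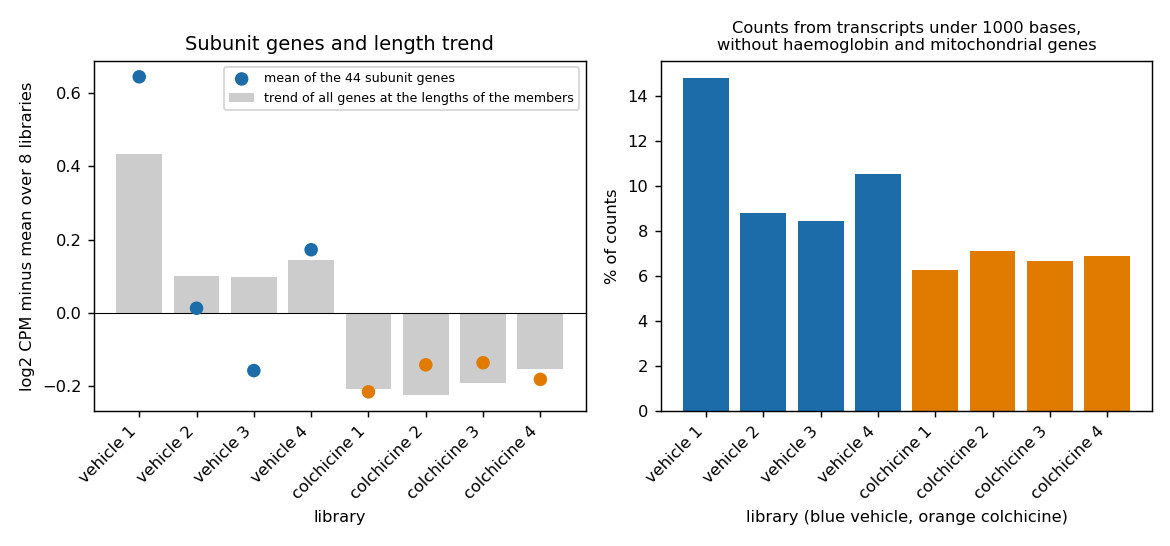
The left panel shows per library the mean log2 deviation of the 44 genes (points) and the value that the length trend of all genes gives at their lengths (grey bars); the right panel shows the percentage of counts from transcripts under 1000 bases. The 4 colchicine libraries are below 0 in both measures on the left and at 6.27% to 7.11% on the right, while vehicle 1 is at 0.64 and 14.8%.

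When this trend was removed in each library before the same test, 1 member was lowered and 0 were raised by edgeR, against 12.9% lowered and 19% raised over all tested genes. At an unadjusted p under 0.05 the counts were 4 and 3. The lowered gene was Psme3, at -0.63 ± 0.20 (adjusted p = 0.0403). When GC content was corrected together with length, Psme3 did not pass (-0.58, adjusted p = 0.0511), and the 1 lowered member was Psma2 (-0.67 ± 0.17, adjusted p = 0.0204). With length alone removed, the median change of the members turned from -0.43 to 0.05. It had 19 negative and 25 positive values, against a median of 0.10 over all genes. In that fit, with length alone removed, Psmb5 was at -0.18 ± 0.14 (adjusted p = 0.350), Psmg1 at -0.25 ± 0.13 (adjusted p = 0.171) and Psme4 at 0.36 ± 0.18 (adjusted p = 0.151). Psme1 was at -0.07 ± 0.14 (adjusted p = 0.699) and Psme2 at -0.11 ± 0.11 (adjusted p = 0.461). A trend fitted to all genes also takes out any real difference that runs with length, so the corrected and uncorrected values are given side by side, and which is nearer to the tissue was not tested.

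TPM values divide each gene by its length and sum to the same total in every library, so a high share of haemoglobin lowers the values of all other genes. Haemoglobin genes took 31.0% of the TPM of vehicle 1 and 16.4% of that of vehicle 4, and at most 1.09% elsewhere. On log2(TPM + 1) with limma-trend, 43 members were tested, 0 were lowered (0 also at an unadjusted p under 0.05) and 2 were raised, against 6.56% lowered and 17.8% raised over all genes, 2347 genes raised and 863 lowered. The 2 raised were Psme4 (1.12 ± 0.27, adjusted p = 0.0203) and Psmc6 (0.91 ± 0.23, adjusted p = 0.0213). The median of the members was 0.05 and that of all genes 0.35 on this scale, so the sign of the members' median differed between CPM and TPM while it lay below that of all genes on both.

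**Figure D4:**
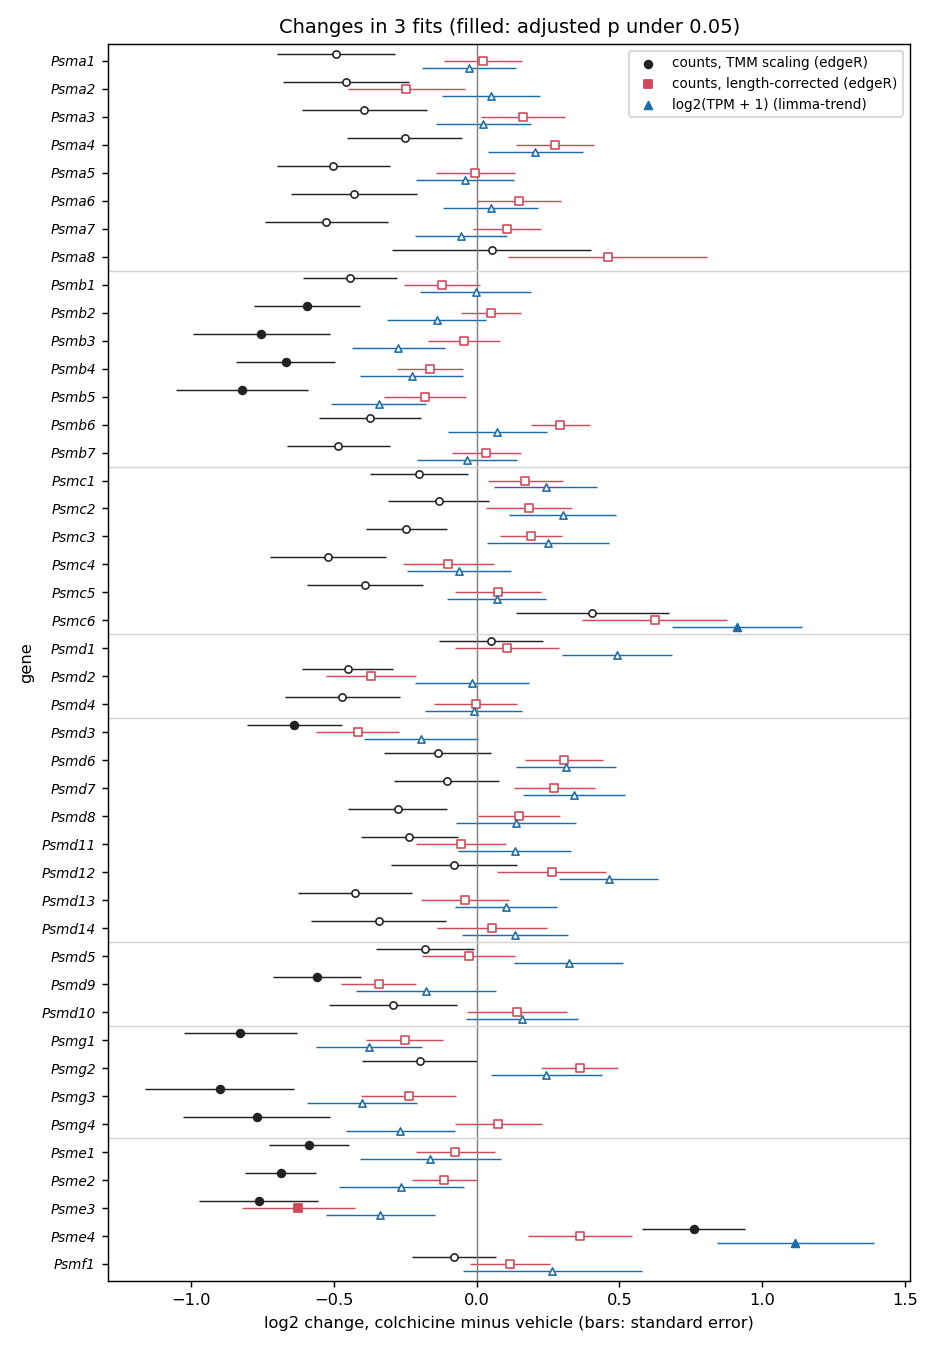
For each of the 44 genes the log2 change with its standard error is shown from counts with TMM scaling (black circles), from counts after removal of the length trend (red squares) and from log2(TPM + 1) (blue triangles, 43 genes); filled symbols passed an adjusted p of 0.05. The black circles lie left of 0 for 40 genes, the red squares for 19, and Psme3 is the 1 gene lowered in both count fits.

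Other complexes with short transcripts also had negative medians on CPM. The 72 tested genes of the cytosolic ribosome, at a median length of 719 bases, had a median change of -0.59 with 25 lowered (34.7%), and 0.12 with 1 raised and 1 lowered after removal of the length trend. The 37 genes of respiratory complex I were at -0.39 with 8 lowered (21.6%), and at 0.27 with 10 raised after it. The 8 genes of the CCT chaperonin, with a longer median of 1978 bases, were at -0.33, and at -0.04 after it.

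The immunoproteasome subunits all fell, with and without removal of the length trend. Psmb8 measured 39.99, 63.6, 32.6 and 38.8 CPM in vehicle 1 to 4 and 11.3, 12.9, 12.1 and 15.8 in colchicine 1 to 4. The groups were wide apart, with vehicle 2 the highest, and the change was -1.75 ± 0.22 (adjusted p = 0.00406). Psmb9 changed by -1.37 ± 0.22 (adjusted p = 0.00528) and Psmb10 by -1.30 ± 0.19 (adjusted p = 0.00434), and all 3 passed whichever library was left out. After removal of the length trend they were at -1.24, -0.96 and -0.87 and still passed (adjusted p = 0.00956, 0.0175 and 0.0114). On log2(TPM + 1) Psmb8 passed (adjusted p = 0.0250) and Psmb9 and Psmb10 did not (0.0807 and 0.0531).

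Within a library, the ratio of an immunoproteasome subunit to the constitutive subunit it replaces does not depend on how libraries are scaled. Psmb8 stood at 22.3%, 67.3%, 41.8% and 31.1% of the TPM of Psmb5 in vehicle 1 to 4 and at 19.6%, 18.1%, 15.9% and 24.8% in colchicine 1 to 4. Vehicle 1 fell within the colchicine range and the other vehicle libraries lay above it. The difference of the log2 ratio was -0.95 (-1.42 ± 0.68 in vehicle, -2.36 ± 0.27 in colchicine, SD, n = 4), with an exact two-sided permutation p of 0.0571 over the 70 assignments of the libraries.

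For Psmb9 to Psmb6 the difference was -1.02 (exact permutation p = 0.0571), and for Psmb10 to Psmb7 it was -0.83 (exact permutation p = 0.0286, the smallest this design allows). Adjusted over the 3 pairs every p was 0.0571, so none passed. Without vehicle 1 the differences were -1.19, -1.25 and -0.96, each with an adjusted exact permutation p of 0.0286, the smallest the remaining libraries allow. Vehicle 1 was the lowest vehicle library in every pair, so leaving it out widens the gap and these p-values are not separate support. Both genes of a pair were not of equal length, at 1043 and 898 bases for Psmb8 and Psmb5, 1342 and 798 for Psmb9 and Psmb6, and 1311 and 1160 for Psmb10 and Psmb7.

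**Figure D5:**
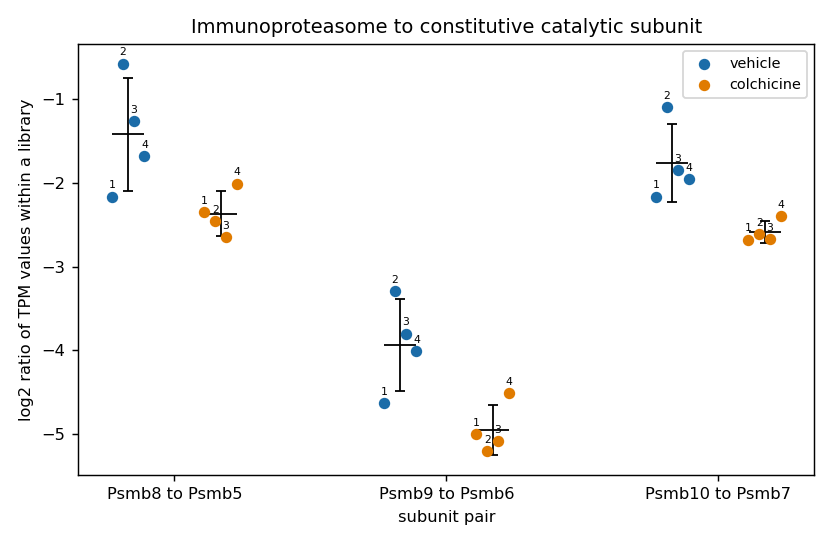
Points give the log2 ratio of TPM values of each immunoproteasome subunit to its constitutive counterpart in each library (numbers are the library numbers within vehicle, blue, and colchicine, orange), with the mean and SD of each group in black. Vehicle 1 is the lowest vehicle library in all 3 pairs, and in the pair of Psmb10 and Psmb7 the groups do not overlap.

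Some genes that work with the proteasome are described next. Of 15 tested proteasome-associated genes, 1 rose and 1 fell, against 17.4% raised and 17% lowered over all tested genes. Ecpas, which encodes a clamp between the core and the regulatory particle, went from 44.5 ± 5.08 to 71.2 ± 14.98 CPM (0.68 ± 0.17, adjusted p = 0.0162). Pomp, the maturation factor of the core, went from 109.9 ± 39.2 to 65.9 ± 7.52 CPM (-0.74 ± 0.24, adjusted p = 0.0390). The transcripts of Ecpas and Pomp have 6634 and 1009 bases, and neither gene passed after removal of the length trend (adjusted p = 0.219 and 0.485). In that fit 2 of the 15 were raised and 0 lowered, against 19% and 12.9% of all tested genes. These were Uchl5 (0.78, adjusted p = 0.0393) and Akirin2 (0.43, adjusted p = 0.0284), both named outside the rule. With GC corrected too, neither passed (0.148 and 0.0639). Without vehicle 1 and 4, 4 of the 15 were raised and 0 lowered, against 20.2% and 20.3%.

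Of 14 genes around NFE2L1, 1 rose and 0 fell by edgeR, against 17.4% raised and 17% lowered over all tested genes. At an unadjusted p under 0.05 by edgeR, 3 were higher and 0 lower. DESeq2 called 3 higher and 0 lower and limma-voom 2 and 0, where 15.4% and 18.3% of all tested genes were raised. The gene that rose was Sel1l, which encodes a part of the retrotranslocation machinery of the endoplasmic reticulum, at 0.52 ± 0.14 (adjusted p = 0.0229). Ngly1, the glycanase that activates NFE2L1, was at 0.60 ± 0.21 (adjusted p = 0.0530). After removal of the length trend Sel1l did not pass (0.15, adjusted p = 0.460), while Ngly1 (0.72, adjusted p = 0.0320) and Mafk (0.66, adjusted p = 0.0333), which is named outside the rule, were raised. Over all tested genes 19% were raised in that fit. Nfe2l1 itself, named outside the rule, averaged 313 ± 28.9 CPM with vehicle and 377 ± 24.8 with colchicine (0.27 ± 0.14, adjusted p = 0.155).

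Of 11 shuttle factors, unfoldase subunits and ubiquitin-activating or conjugating enzymes, 0 passed by edgeR or limma-voom, 1 was lower at an unadjusted p under 0.05 by edgeR and DESeq2 called 1 lower. The smallest p-values were those of the ubiquitin-activating enzyme Uba1 (-0.33 ± 0.14, adjusted p = 0.0990) and of Nploc4, a cofactor of the unfoldase (-0.24 ± 0.12, adjusted p = 0.131).

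The genes whose log2 CPM over the 8 libraries was most like the mean of the 20S core were Psenen, Eif5a, Sec11c, Ngdn and Prelid3b, with Pearson correlations of 0.993 to 0.995. Such likeness was common, since 1053 of 13384 other tested genes (7.87%) had a correlation over 0.9, and the 8 points share the high value of vehicle 1.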

How the data were processed

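RNA from mouse aorta was sequenced by the submitters in 8 libraries, 4 vehicle and 4 colchicine, made with a column RNA kit and a SMARTer mRNA kit per the labels' protocols. Per the file headers, the authors' table gave estimated counts for Ensembl genes (8.70% of the values were not whole) beside TPM values. The submitters' processing notes name mm10 as the genome. Which aligner, counter, annotation and strand setting were used is not given in the sources used here. One TPM column had no unit in its header and was read as TPM from its sum. Dividing counts by TPM gave the length behind each TPM value, which over 753 genes with a single transcript lay within a median of 0.00033% of the length in GENCODE M21 (GRCm38), where 99.6% of the identifiers were found.

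Counts were rounded and 13431 genes were kept by filterByExpr of edgeR 4.0.16 (R 4.3.3). TMM factors were 0.762 in vehicle 1 and 0.987 to 1.08 elsewhere. The edgeR quasi-likelihood test (two-sided, no covariate) compared the groups, with Benjamini-Hochberg adjustment over all tested genes and a threshold of 0.05. Changes are log2, colchicine minus vehicle, ± SE. For the length correction, each gene's log2 CPM minus its mean over the libraries was fitted in each library. The fit was a spline on log2 length with 5 degrees of freedom, entered in the test as an offset. TPM values were tested with limma-trend 3.58.1 as log2(TPM + 1), keeping genes whose mean reached 1 TPM in either group, a scale that understates changes of low genes. DESeq2 1.42.0, limma-voom, other scalings and filters, left-out libraries and covariates were alternatives. Ratios used TPM plus 0.1 and an exact permutation test. The fitting functions were tested on simulated data. For a gene without counts the floor was 3 counts (0.158 to 0.220 CPM), which covers counting error only. At 15.4 to 18.5 M counts a library, counting error is largest for Psma8. Among the called members it weighs most for Psmg3 and Psmg4, which had the lowest CPM.

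The members, gene lists, markers and tests were chosen with earlier results of these data known. Values in every library are given for the 3 cutting subunits, for up to 6 members with the largest rise and 6 with the largest fall past the threshold, for the highest and lowest member by mean TPM, and for Psme1 and Psme2. From each pathway list described, the 2 genes with the smallest p were named (some results are not reported here), and the 5 genes most like the core were ranked by Pearson correlation. Promoter sequences came from RefSeq windows for 36 of 44 members. Psmd1, Psmb7, Psmg3 and Psme2, 4 members in all, had counts that were not whole, so reads were shared there with other genes or transcripts.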

Additional observations from a re-analysis of the deposited data

Results flagged for a closer look

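In 5 of 100 groups of 4 values (CPM of 1 gene, or a log2 ratio, in 1 group) a single library stood far from the other three by Dixon's test at the 95% level. Chance gives about 5% of groups, so the number is what chance gives. All 5 were colchicine groups. Psme1 was low in colchicine 3, at 52.3 CPM against 59.6 to 60.7 CPM in the other three. In the same library Psma7 was high, at 80.5 CPM against 78.1 to 78.4 CPM, and so was Psmd8, at 238 CPM against 170.3 to 181 CPM. Psmd9 was high in colchicine 4, at 21.5 CPM against 19.5 to 19.7 CPM. Psmb9, an immunoproteasome gene, was also high there, at 6.25 CPM against 4.25 to 4.55 CPM.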

How the results depend on the processing

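Of 1125 values of single genes under alternative settings, 947 stayed on the same side of the threshold (828 with the same sign, the others without a call in either fit), 117 no longer passed, 51 newly passed and 10 changed sign where a fit called the gene. RLE factors, library totals alone, totals without haemoglobin and mitochondrial genes, other count filters, DESeq2 and limma-voom gave 11 to 15 lowered members and 1 raised. Over all tested genes these fits lowered 12.7% to 18.4% and raised 12.8% to 18.3%. The median of the members turned positive after the length correction (0.0511; 0 raised and 1 lowered), after the length and GC correction (0.0525; 2 raised and 1 lowered, Psma2 at -0.67 with an adjusted p of 0.0204 by edgeR, while Psme3 did not pass there), on log2(TPM + 1) and on log2(TPM + 0.1) (0.0489 and 0.0492; 2 raised and 0 lowered in both, 0 also at an unadjusted p under 0.05 on the first). With length and GC together 19.9% of all genes were raised and 12.1% lowered. With log2(TPM + 0.1) 3001 genes passed in all, 16.2% raised and 6.59% lowered.

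Of genes called in either fit compared, these changed sign. With the length correction Psmb2 was at 0.0488 and Psmg4 at 0.0748. With length and GC together Psmb6 (0.44), Psmc3 (0.34), Psme1 (0.0758), Psmb2 (0.11), Psmb3 (0.0897), Psmg4 (0.24) and Psme2 (0.0051) were positive, and Psmb6 and Psmc3 passed. Without vehicle 1 and 4, Psmd12 was raised (0.37) and 4 members were raised in all.

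With each library left out in turn, 3 to 22 members were lowered, 0 to 1 raised and 2207 to 5058 genes called, with member medians of -0.56 to -0.30. Without vehicle 1, the lowest vehicle library in every pair, the ratios of Psmb8 to Psmb5, Psmb9 to Psmb6 and Psmb10 to Psmb7 passed (-1.19, -1.25 and -0.96). Their exact permutation p was the smallest the remaining libraries allow. Over all left-out libraries the differences ran from -1.19 to -0.66, -1.25 to -0.80 and -0.96 to -0.60. The fit without vehicle 2 and 3 (0 raised, 33 lowered, with 15.8% and 23.0% of all genes) and the smooth muscle covariate (0 and 0 members, 2 genes in all) were chosen after seeing the data. The smooth muscle level runs with the groups, so its fit can hardly tell that level from treatment. The erythroid covariate gave 2 raised and 7 lowered, with 13.8% and 13.5% of all genes. A threshold of 0.01 gave 0 raised, 1 lowered and 1404 genes in all (4.49% raised and 5.96% lowered). One of 0.1 gave 1 raised and 20 lowered, with 23.0% and 22.8% of all genes.

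Same-numbered libraries of the groups did not deviate together (correlations of -0.112, -0.159, 0.0319 and -0.247), so the main fit did not pair them. Whether they shared a batch was not tested. With the replicate block 1 member was lowered, 1 raised and 2305 genes called (8.82% of all genes lowered and 8.35% raised). The cause of these changes was not tested. The groups of 4 and the spread among vehicle libraries limit what can be called.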
